A study of Mus musculus with 16 samples.

Results

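The sugar digestion and transport genes are 9 genes that small bowel enterocytes use to take up dietary sugar, found by symbol among the 46078 genes of the count table. They are the disaccharidases Sis, Lct, Mgam and Treh, the hexose transporters Slc5a1, Slc2a2, Slc2a5 and Slc2a1, and the fructose kinase Khk. Each symbol matched 1 gene, and all 9 passed the filter on low counts. Their RNA was read in ileum mucosa of 16 mice on the C57Bl/6 background. Each genotype, Slfn3KO and WT, had 4 mice with a male label and 4 with a female one. Slfn3KO mice lack Slfn3, a Schlafen family gene, in the whole body, and the WT mice are described as littermates. The labels give an age of 8 weeks for every mouse, and the study's methods give an older age. The labels call the tissue intestinal mucosa and the methods call it ileum mucosa, with no distance along the bowel. The question was how far these genes differ between the genotypes, and how far they follow Fabp6, the ileal bile acid binding protein, which rises toward the distal ileum.

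Disaccharidases sit on the brush border and split sugars into monosaccharides. Sucrase-isomaltase (Sis) cuts sucrose and short starch chains, lactase (Lct) cuts milk sugar, maltase-glucoamylase (Mgam) cuts starch fragments, and trehalase (Treh) cuts trehalose. SGLT1 (Slc5a1) carries glucose and galactose into the enterocyte with sodium, GLUT5 (Slc2a5) carries fructose in, and GLUT2 (Slc2a2) passes sugars on to the blood side. GLUT1 (Slc2a1) supplies many cell types with glucose and is not known as the main absorptive transporter. Ketohexokinase (Khk) phosphorylates fructose inside the cell. Sugar absorption is mostly a task of the jejunum, and its genes are known to fade along the bowel, lactase most of all. Gata4, a transcription factor of the proximal small bowel, is absent from the most distal ileum.

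The libraries held between 20823279 and 30813117 counts, so that 3 counts, taken as the floor, were between 0.0974 and 0.144 CPM before TMM scaling. Levels below are CPM, a gene's counts scaled to a common library size with TMM factors. Slfn3 itself had 0 to 2 counts in the Slfn3KO libraries and 0 to 19 in the WT libraries, and 4 WT libraries were at or under the floor. It therefore gives only a weak check of the genotype labels. In WT 3 and WT 4 of both labelled sexes, Xist and the Y-linked transcripts did not match the labelled sex. Grouping still follows the labels, and the pooled, female and sex by genotype comparisons are also given without these 4 libraries. The ileal marker Fabp6 lay between 1831 and 15679.7 CPM, the 4 colon markers summed to 137 to 238 CPM, with Slc26a3 the 1 of them past the filter and Hoxd13 at 0 counts in every library, and the summed pancreatic acinar markers stayed at or under 0.162 CPM. The distal markers summed to 3279 to 17896 CPM and the proximal markers, Gata4 among them, to 73.4 to 3751 CPM. The summed B cell follicle markers ranged from 1.69 to 596 CPM.

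**Figure D1:**
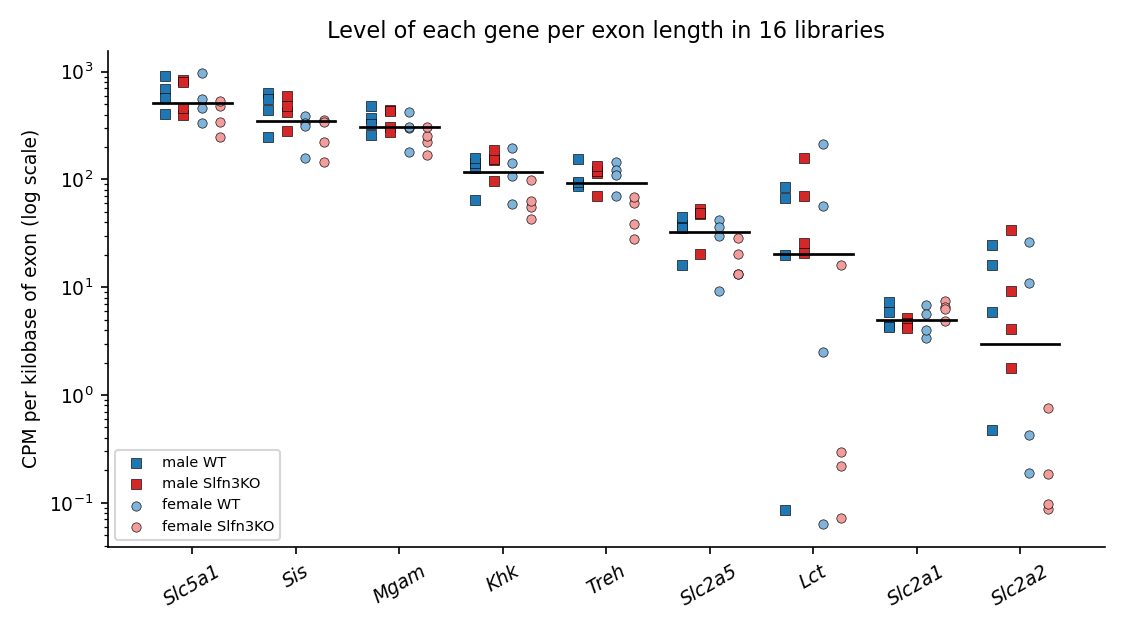
CPM per kilobase of exon (log axis) for each gene in the 16 libraries, with black lines at the median and colours for labelled sex and genotype. Slc5a1, Sis and Mgam lie at the top, and Lct and Slc2a2 spread much farther than the other genes.

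Per length, the sodium-glucose transporter was the most abundant of these transcripts. Median levels per kilobase of exon were 508 CPM for Slc5a1, 346 for Sis, 305 for Mgam, 118 for Khk, 92.3 for Treh, 32.5 for Slc2a5, 20.4 for Lct, 5.01 for Slc2a1 and 2.94 for Slc2a2. Slc5a1 was above Sis in 15 of 16 libraries, and Mgam was above Khk and Treh above Slc2a5 in all 16. Other neighbours in this order overlapped. Sis was above Mgam in 11 libraries, Khk above Treh in 12, Slc2a5 above Lct in 9, Lct above Slc2a1 in 10 and Slc2a1 above Slc2a2 in 10 of 16. These levels rest on the exon lengths of the count table, and none of the 9 genes shares exon bases with another gene on its strand.

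Lct and Slc2a2 were among the most variable genes of the whole tissue. Over the 16 libraries the SD of log2 CPM was 4.21 for Lct, the 6th largest of 14822 genes tested, and 3.01 for Slc2a2, the 16th largest, against a median of 0.323. The other members were far steadier. Their SDs ran from 0.336 for Slc2a1 to 0.786 for Slc2a5, and their highest library was between 2.22 times (Slc2a1) and 5.79 times (Slc2a5) the lowest. For Slc2a2 the highest library was 385 times the lowest, and for Lct 3380 times.

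Lct (ENSMUSG00000026354, chr1:128284756-128328318, minus strand, GRCm38) was measured at 128, 545, 0.551 and 432 CPM in male WT 1 to 4 and at 163, 451, 134 and 1006 CPM in male Slfn3KO 1 to 4. In the libraries labelled female it was at 1367, 366, 0.404 and 16.2 CPM in WT 1 to 4 and at 0.461, 1.39, 103 and 1.91 CPM in Slfn3KO 1 to 4. Lactase RNA was thus nearly missing in female Slfn3KO 1, 2 and 4, in female WT 3 and in male WT 3. These 5 libraries still held 10 to 47 Lct counts, above the floor of 3. Low libraries occurred in both genotypes, and the ranges of Slfn3KO and WT overlapped within each labelled sex.

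Slc2a2 (ENSMUSG00000027690, chr3:28697903-28731359, plus strand), which codes for GLUT2, was low in the same 5 libraries. It was at 33.7, 143, 2.72 and 93.4 CPM in male WT 1 to 4 and at 23.7, 53.3, 10.2 and 194 CPM in male Slfn3KO 1 to 4. In the libraries labelled female it was at 149.5, 62.5, 1.09 and 2.44 CPM in WT 1 to 4 and at 0.503, 0.557, 4.32 and 1.06 CPM in Slfn3KO 1 to 4. All 4 female Slfn3KO libraries were under 5 CPM, and so were female WT 3 and 4 and male WT 3, so that the genotypes overlapped.

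**Figure D2:**
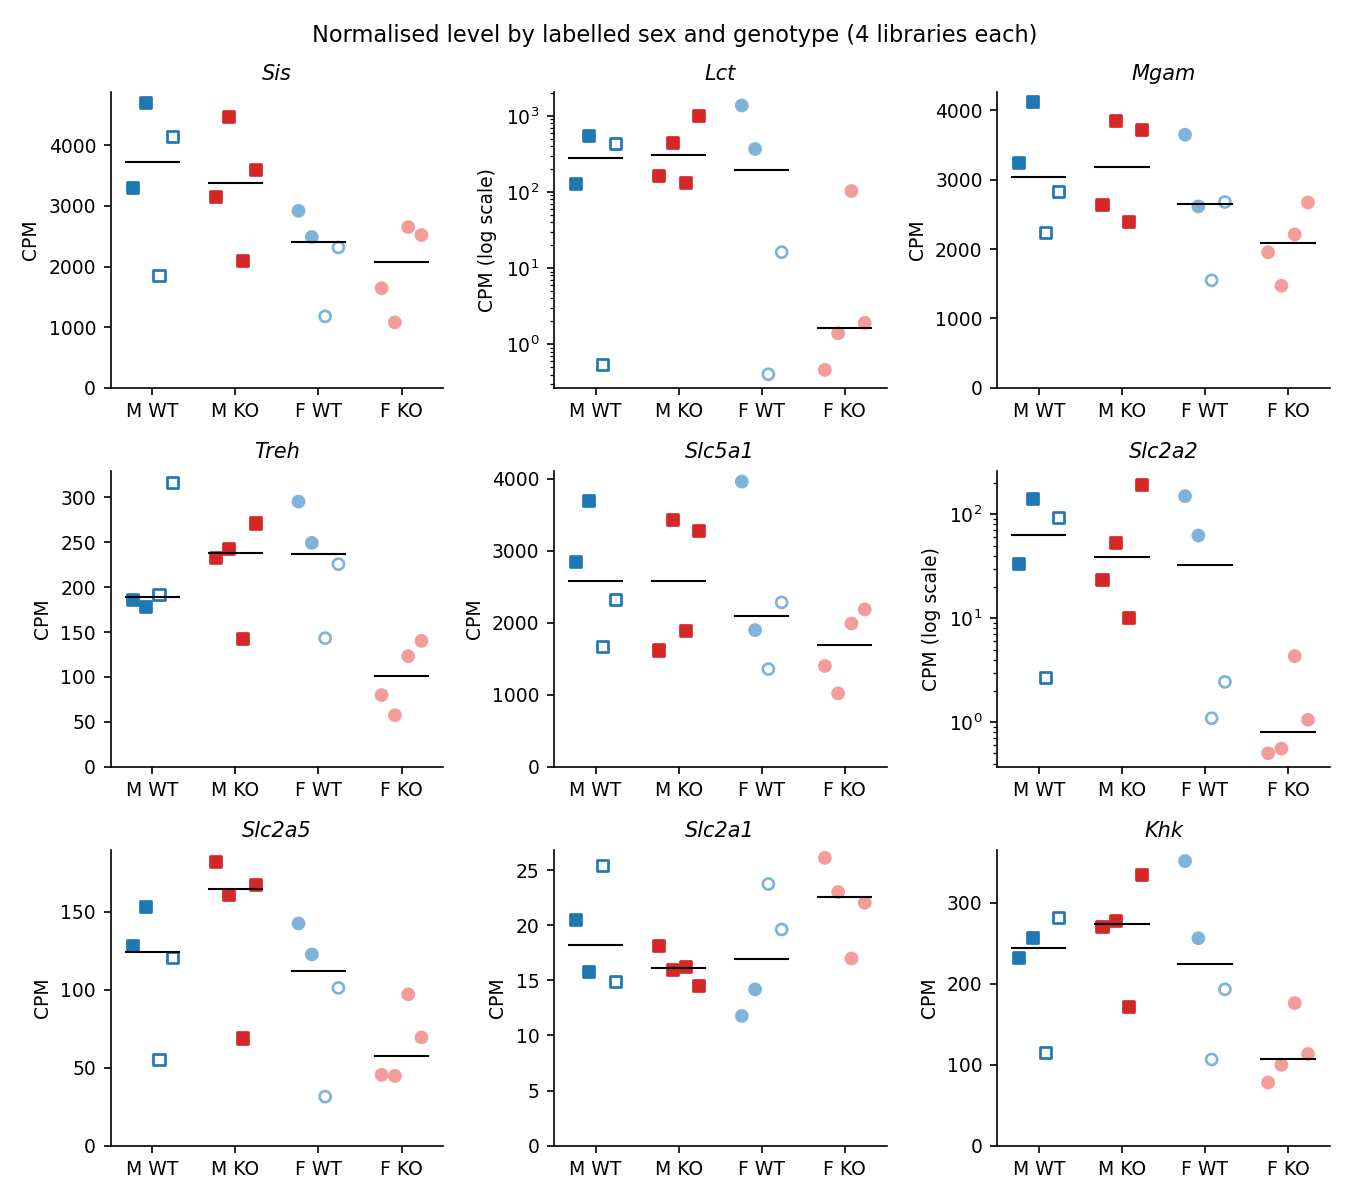
CPM of each gene in the 16 libraries by labelled sex (M, F) and genotype (KO for Slfn3KO), in order of replicate number. Lct and Slc2a2 have log axes, bars are group medians, and open symbols are WT 3 and 4 of each labelled sex, where Xist and Y-linked RNA did not match it. Female Slfn3KO libraries lie low for Treh, Khk and Slc2a2, with WT libraries among them for every gene except Treh.

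The starch and sucrose enzymes were abundant everywhere. Sis (ENSMUSG00000027790, chr3:72888557-72967863, minus strand) ranged from 1078 to 4701 CPM, with its lowest levels in female Slfn3KO 2 and female WT 3. Mgam (ENSMUSG00000068587, chr6:40628831-40769123, plus strand) ranged from 1471 to 4133 CPM, and was lowest in the same 2 libraries. Treh (ENSMUSG00000032098, chr9:44673233-44686305, plus strand) was at 186, 179, 192 and 316 CPM in male WT 1 to 4 and at 233, 243, 143 and 271 CPM in male Slfn3KO 1 to 4. In the libraries labelled female Treh was at 295, 249, 143 and 226 CPM in WT 1 to 4 and at 79.7, 57.4, 123 and 140.2 CPM in Slfn3KO 1 to 4. It was the 1 member whose female Slfn3KO libraries all lay below every female WT library, although the nearest libraries stood at 140.2 and 143 CPM. The library at 143 CPM was female WT 3, whose Xist and Y-linked transcripts did not match its label. Of all genes tested in the libraries labelled female, 2.49% were separated in that way and 5.67% in the opposite way. In the libraries labelled male no member was separated, where 1.25% of genes lay wholly lower and 1.08% wholly higher in Slfn3KO.

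Among the transporters and the kinase, Slc5a1 (ENSMUSG00000011034, chr5:33104219-33162870, plus strand) ranged from 1018 to 3959 CPM and was lowest in female Slfn3KO 2 and female WT 3. Slc2a5 (ENSMUSG00000028976, chr4:150119283-150144169, plus strand) ranged from 31.4 CPM in female WT 3 to 182 CPM in male Slfn3KO 1. Khk (ENSMUSG00000029162, chr5:30921431-30931248, plus strand) was at 232, 257, 115 and 282 CPM in male WT 1 to 4, at 270.2, 278, 172 and 334 CPM in male Slfn3KO 1 to 4, at 351, 256, 106 and 193 CPM in female WT 1 to 4 and at 77.9, 99.7, 176 and 113 CPM in female Slfn3KO 1 to 4. Khk was thus low in the libraries that were also low in Lct. Slc2a1 (ENSMUSG00000028645, chr4:119108711-119137983, plus strand) ran the other way. It was lowest at 11.8 CPM in female WT 1, where Lct was highest, and highest at 26.1 CPM in female Slfn3KO 1.

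Members varied together from library to library, Slc2a1 in the opposite direction. Pearson's r of log2 CPM over the 16 libraries, given as a description of libraries that share these samples, was 0.96 between Lct and Khk, 0.93 between Lct and Slc2a2, 0.95 between Mgam and Slc5a1, and 0.92 between Sis and Mgam. Slc2a1 had r of -0.93 with Lct and -0.89 with Khk. Treh had r of 0.69 to 0.83 with the 7 members other than Slc2a1, and no closer tie to any member.

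Because members varied together, their promoters were searched for the letters of GATA, CDX, HNF1 and HNF4 motifs, all of them factors known in enterocytes. The 9 promoters, each from 250 bases before to 50 bases after the start, were taken from RefSeq (GRCm38.p6), and all 9 members matched. The letters searched on both strands were AGATAA for GATA, TTTAT and TTTAC for CDX, GTTAAT for HNF1 and CAAAGTCCA for HNF4. The 250 bases before the start are shown for Lct and Mgam, which held AGATAA 2 times each, for Sis, which held none of it but 4 matches of TTTAT, and for Slc2a2, which varied with Lct but held no AGATAA in this window. Capitals mark every match on either strand, and matches of different motifs can overlap.
Lct (chr1:128328319-128328568, minus strand): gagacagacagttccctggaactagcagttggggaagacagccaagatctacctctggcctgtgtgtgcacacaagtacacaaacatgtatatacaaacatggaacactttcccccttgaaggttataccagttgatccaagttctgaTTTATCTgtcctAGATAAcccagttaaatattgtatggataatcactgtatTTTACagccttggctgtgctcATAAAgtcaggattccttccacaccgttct
Mgam (chr6:40628581-40628830, plus strand): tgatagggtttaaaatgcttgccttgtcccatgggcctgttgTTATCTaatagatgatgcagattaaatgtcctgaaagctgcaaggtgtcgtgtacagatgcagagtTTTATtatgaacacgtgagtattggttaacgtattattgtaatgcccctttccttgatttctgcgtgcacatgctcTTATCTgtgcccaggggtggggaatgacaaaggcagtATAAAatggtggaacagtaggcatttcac
Sis (chr3:72967864-72968113, minus strand): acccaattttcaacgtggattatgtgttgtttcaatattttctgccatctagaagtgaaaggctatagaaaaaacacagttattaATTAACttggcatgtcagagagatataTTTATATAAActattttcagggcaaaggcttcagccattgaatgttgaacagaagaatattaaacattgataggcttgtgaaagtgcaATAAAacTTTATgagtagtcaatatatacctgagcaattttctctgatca
Slc2a2 (chr3:28697653-28697902, plus strand): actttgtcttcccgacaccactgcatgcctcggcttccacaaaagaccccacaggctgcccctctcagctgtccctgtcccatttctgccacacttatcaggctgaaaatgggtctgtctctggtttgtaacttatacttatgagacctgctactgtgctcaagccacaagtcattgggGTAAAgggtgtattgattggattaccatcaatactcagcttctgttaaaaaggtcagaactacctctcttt

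AGATAA stood on the gene's strand 90 to 85 bases before the start of Lct and on the opposite strand 101 to 96 bases before it, where it overlaps TTTAT. In Mgam it lay 208 to 203 and 66 to 61 bases before the start, both on the opposite strand. Of 32851 promoters 11.2% held AGATAA and 1.14% held it 2 or more times, and of the 9 members only Lct and Mgam did. TTTAT was in 4 members (40.0% of all promoters), TTTAC in 3 (31.5%), GTTAAT in Sis and Khk (7.10%) and CAAAGTCCA in Treh (0.475%). Slc2a5 held none of these letters. Other spellings of the GATA motif were not searched. TGATAA stands on the opposite strand of the Slc2a2 window shown, and TGATAG on the gene's strand of the Sis window. A promoter without AGATAA can thus still hold a GATA motif. These matches describe the letters in a short window, and no binding was measured.

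No member passed the test between the genotypes. Slfn3KO and WT were compared with edgeR's quasi-likelihood test, where a call needed both a Benjamini-Hochberg adjusted p below 0.05 and 1.5-fold or more. With labelled sex as a covariate, 0% of 14822 genes were called, although 1770 had an unadjusted p under 0.05 and DESeq2 called 54, none of them a member. Of the 9 members 8 had a log2 fold change below 0, with a median of -0.29 against -0.00365 over all genes tested. All 8 pan-enterocyte markers, genes of enterocytes at large, were also below 0 (median -0.28), and so were all 6 proximal markers (median -0.66). Treh was at -0.59 (SE 0.26), 161 ± 79.0 CPM in Slfn3KO and 223 ± 60.2 CPM in WT (SD, n = 8 each), with an unadjusted p of 0.0390 and an adjusted p of 0.389 from edgeR. It was the 1 member past an unadjusted 0.05 and 1.5-fold, as were 4.99% of all genes in the direction lower in Slfn3KO. Slc2a2 was at -2.29 with a 95% interval from -5.28 to 0.69, and Lct at -1.68 with an interval from -5.54 to 2.18, so that neither gene's difference was bounded closely. Leaving out 1 library moved the Lct value to between -2.26 (without male WT 3) and -0.72 (without female WT 1). For the abundant genes the intervals were narrow, from -0.64 to 0.39 for Sis, from -0.56 to 0.24 for Mgam and from -0.82 to 0.25 for Slc5a1. Without WT 3 and 4 of both labelled sexes the pooled differences lay farther from 0, at -3.91 for Slc2a2, -3.24 for Lct, -0.69 for Khk, -0.66 for Treh, -0.59 for Slc5a1, -0.53 for Slc2a5, -0.41 for Mgam, -0.35 for Sis and 0.28 for Slc2a1, and no edgeR adjusted p was under 0.761.

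**Figure D3:**
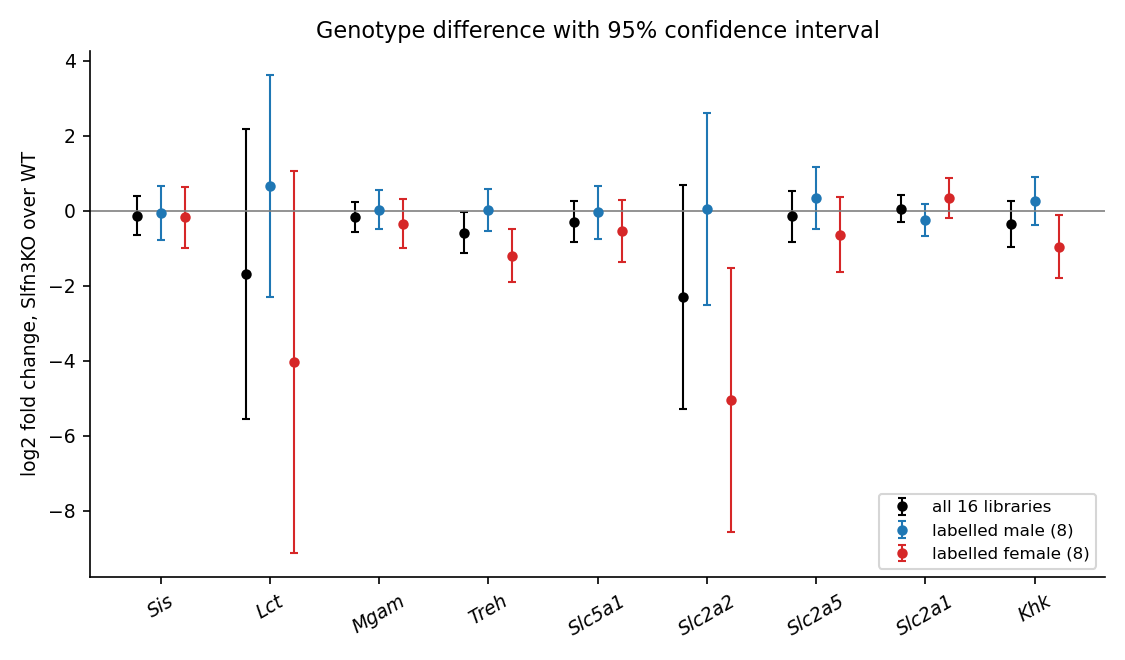
log2 fold change of Slfn3KO over WT (edgeR) for each gene, with 95% intervals, over all 16 libraries (black), the 8 labelled male (blue) and the 8 labelled female (red). Intervals for Lct and Slc2a2 are many times wider than for Sis, Mgam and Slc5a1, and only Treh, Slc2a2 and Khk in the libraries labelled female, and Treh pooled, have intervals that leave out 0.

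In the libraries labelled male the median log2 fold change was 0.03, 6 members were above 0 and 3 below, the smallest edgeR adjusted p was 0.925, and edgeR called 0% of 14124 genes (542 at an unadjusted p under 0.05, and 14 called by DESeq2). With the replicate number as a block, the male differences of Slc2a5 and Khk were 0.35 (SE 0.10) and 0.29 (SE 0.10). Their unadjusted edgeR p were 0.0161 and 0.0279, with an edgeR adjusted p of 0.743 for both. edgeR again called 0 genes (936 at an unadjusted p under 0.05). The labels number the mice without saying that they were paired. Male WT 3 and 4 in these blocks held 12851 and 9652 Xist counts and 0 and 1 Ddx3y counts. Without the block, leaving out male WT 3 moved Slc2a5 from 0.35 to 0.13 and Khk from 0.26 to 0.049. Without male Slfn3KO 3 they were at 0.58 and 0.41. In the libraries labelled female 8 of 9 members were below 0, with a median of -0.64 against -0.00983 over all genes. All 8 pan-enterocyte markers (median -0.56) and all 6 proximal markers (median -1.69) were below 0 there too. Slc2a2 was at -5.05 (SE 1.55), 1.61 ± 1.83 CPM in Slfn3KO and 53.9 ± 69.9 CPM in WT (SD, n = 4 each), with an edgeR adjusted p of 0.237. Leaving out 1 library moved it to between -6.24 (without female Slfn3KO 3) and -3.76 (without female WT 1), the pooled value of Slc2a2 to between -3.07 and -1.59, and its interaction with labelled sex to between -6.29 and -3.82. Treh was at -1.20 (SE 0.31), 100.1 ± 38.2 against 228 ± 63.8 CPM (SD, n = 4 each), with an edgeR adjusted p of 0.236. Khk was at -0.96 (SE 0.37), 117 ± 42.1 against 227 ± 103 CPM (SD, n = 4 each), with an edgeR adjusted p of 0.273. These 3 members had an unadjusted p under 0.05 and 1.5-fold, as had 5.69% of all genes tested in that direction, and edgeR called 0% of 14064 genes after adjustment (2410 at an unadjusted p under 0.05). DESeq2 called 506 genes in these 8 libraries, 345 of them lower in Slfn3KO (2.45% of those tested), among them Treh with an adjusted p of 0.0127 and Slc2a2 with an adjusted p of 0.0150. Over all alternatives the adjusted p of Slc2a2 ran from 0.0150 to 0.554 and that of Treh from 0.0127 to 0.554. Lct was at -4.04 with a 95% interval from -9.12 to 1.05, and leaving out 1 library moved it to between -8.44 (without female Slfn3KO 3) and -2.26 (without female WT 1). Without WT 3 and 4 the female differences also lay farther from 0, at -6.03 for Slc2a2, -5.02 for Lct, -1.45 for Treh, -1.38 for Khk, -1.05 for Slc2a5, -0.83 for Slc5a1, -0.60 for Mgam, -0.46 for Sis and 0.76 for Slc2a1, with edgeR adjusted p from 0.0909 for Slc2a2 to 0.467 for Sis. That fit compares 4 Slfn3KO libraries with only 2 WT libraries.

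The same libraries differed in other RNA. Gata4 was at 1.13, 2.55, 43.8 and 6.90 CPM in female Slfn3KO 1 to 4 and at 127, 48.4, 2.02 and 15.04 CPM in female WT 1 to 4. Summed proximal markers were at 73.4 to 598 CPM in female Slfn3KO and at 411 to 3628 CPM in female WT. The 8 pan-enterocyte markers, Vil1 of the microvillus core and Alpi of the brush border among them, summed to between 16150 and 31731 CPM in female Slfn3KO and between 25272 and 47015 CPM in female WT. B cell follicle markers summed to 6.53 to 35.3 CPM in female Slfn3KO and to 12.5 to 369 CPM in female WT. Smooth muscle markers leaned the other way and overlapped, with sums of 2.39 to 45.9 CPM in female Slfn3KO and 2.05 to 7.45 CPM in female WT. Goblet and Paneth markers summed to 16656 to 19173 CPM in female Slfn3KO and 14354 to 16810.0 CPM in female WT, and in males to 15847 to 18999 CPM in Slfn3KO and 14130.0 to 15458 CPM in WT, without overlap in males. The sums hide mixed directions in the libraries labelled female. There 3 of the 5 markers had a log2 fold change above 0 and 2 below, with a median of 0.0084. In males all 5 were above 0, with a median of 0.30. In bulk mucosa, fewer enterocytes and less RNA per enterocyte cannot be told apart. The part of these differences in the values of either labelled sex was not tested.

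Whether the genotype difference depended on labelled sex was tested as an interaction, female minus male. 8 of 9 members were below 0, with a median of -0.97 against 0.00629 over all genes. All 8 pan-enterocyte markers (median -0.48) and all 6 proximal markers (median -2.01) were below 0 as well. edgeR called 0% of 14822 genes (1639 at an unadjusted p under 0.05, and 19 called by DESeq2). Treh was at -1.22 (SE 0.42, unadjusted p 0.0111), Slc2a2 at -5.10 (95% interval from -9.36 to -0.83, unadjusted p 0.0224) and Khk at -1.21 (SE 0.50, unadjusted p 0.0300), and the edgeR adjusted p was 0.441 for each. These 3 were past an unadjusted 0.05 and 1.5-fold, with 3.18% of all genes on that side. Without WT 3 and 4 of both labelled sexes the interaction fit called 359 genes, and Treh and Slc2a1 came nearest of the members, each with an edgeR adjusted p of 0.0615. Labelled sex is in doubt for those 4 libraries, which bears on each comparison within a sex.

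Against Fabp6 the members leaned toward lower levels where Fabp6 was high, but none passed the test. Fabp6 was at 6563, 1831, 9879 and 12644 CPM in male WT 1 to 4, at 12666, 4532, 5175 and 2725 CPM in male Slfn3KO 1 to 4, at 1835, 15679.7, 8349.9 and 8257 CPM in female WT 1 to 4 and at 5937, 8521, 7030.4 and 8899 CPM in female Slfn3KO 1 to 4. A slope is the log2 change of a gene for each unit of log2 Fabp6 CPM at equal labelled sex and genotype. The edgeR fit called 0.277% of 14821 genes as falling and 0.452% as rising with Fabp6. 8 of 9 members had a slope below 0, with a median of -0.19 against 0.0143 over all genes. Without male WT 2 and female WT 1, the libraries lowest in Fabp6, the slopes of Sis, Treh, Slc2a5, Khk and Slc2a1 turned direction. Slc5a1 came nearest to a call with a slope of -0.38 (SE 0.10, edgeR adjusted p 0.0948), and DESeq2 called it with an adjusted p of 0.0157, falling as did 1.51% of genes there. Over its alternatives that adjusted p ran from 0.0157 up to 0.9997. Mgam had a slope of -0.23 (SE 0.08, edgeR adjusted p 0.245), Lct of -0.91 with a 95% interval from -2.10 to 0.28, Slc2a2 of -0.84 with an interval from -1.74 to 0.07, and Slc2a1 of 0.16 with an interval from -0.05 to 0.36. Leaving out 1 library moved the Lct slope to between -1.69 (without female WT 2) and -0.20 (without female WT 1), and the Slc2a2 slope to between -1.63 and -0.34 without the same libraries. The Slc2a1 slope was 0.050 without female WT 1. No pan-enterocyte or smooth muscle marker was called on Fabp6 by edgeR (smallest adjusted p 0.252 and 0.284). All 8 pan-enterocyte markers had slopes below 0, with a median of -0.15, and all 4 smooth muscle markers had slopes above 0, with a median of 1.24 and summed levels of 2.05 to 73.6 CPM. Their part in the members' slopes was not tested.

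Correlation over the 16 libraries put Slc5a1 first and Mgam second by size. For Slc5a1 Pearson's r with Fabp6 was -0.681 (permutation p 0.00357, adjusted over all genes 0.129) and Spearman's rho was -0.582 (permutation p 0.0205, adjusted 0.349). For Mgam r was -0.570 (permutation p 0.0212, adjusted 0.239) and rho was -0.494 (permutation p 0.0538, adjusted 0.453). The other 7 members had r from -0.438 for Slc2a2 to 0.421 for Slc2a1, rho from -0.421 for Lct to 0.268 for Slc2a1, and no adjusted permutation p under 0.394. Of all genes 0.513% passed by Pearson's r and 0.229% by Spearman's rho, and no member did. Male WT 2 and female WT 1 were farthest from the median of Fabp6, and without them r was -0.458 for Slc5a1 (permutation p 0.0993, adjusted 0.894) and -0.343 for Mgam (permutation p 0.229, adjusted 0.997). Both are WT libraries and the lowest in Fabp6, and without them the fitted slope was -0.37 for Slc5a1 and -0.15 for Mgam, with edgeR adjusted p of 0.726 and 0.888. Within the 8 Slfn3KO libraries r for Slc5a1 was -0.650 (exact permutation p 0.0775, adjusted 0.603), and within the 8 WT libraries it was -0.798 (exact permutation p 0.0192, adjusted 0.529).

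Lct and Slc2a2 were highest where Fabp6 was lowest, but did not follow it in a simple order over its whole range. At the low end, male WT 2, female WT 1, male Slfn3KO 4 and male Slfn3KO 2 had Fabp6 of 1831 to 4532 CPM. Their Lct levels of 545, 1367, 1006 and 451 CPM were the highest of all. Slc2a2 was highest in male Slfn3KO 4, female WT 1 and male WT 2, at 194, 149.5 and 143 CPM. The 3 libraries highest in Fabp6 were female WT 2, male Slfn3KO 1 and male WT 4, and their Lct levels of 366, 163 and 432 CPM were above the median of 131 CPM. Their Slc2a2 levels were 62.5, 23.7 and 93.4 CPM. The 5 libraries nearly without Lct had Fabp6 between 5937 and 9879 CPM, in the middle of its range. With Fabp6 held equal, the genotype difference was -1.67 for Lct, -2.37 for Slc2a2 and -0.59 for Treh on the log2 scale, all near the values without Fabp6 in the fit. Leaving out 1 library moved the Lct value to between -2.39 (without female Slfn3KO 3) and -0.73 (without female WT 2), and the Slc2a2 value to between -2.81 (without male WT 2) and -1.52 (without female WT 2). At equal Fabp6 edgeR called 0% of 14821 genes (1773 at an unadjusted p under 0.05, and 46 called by DESeq2).

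**Figure D4:**
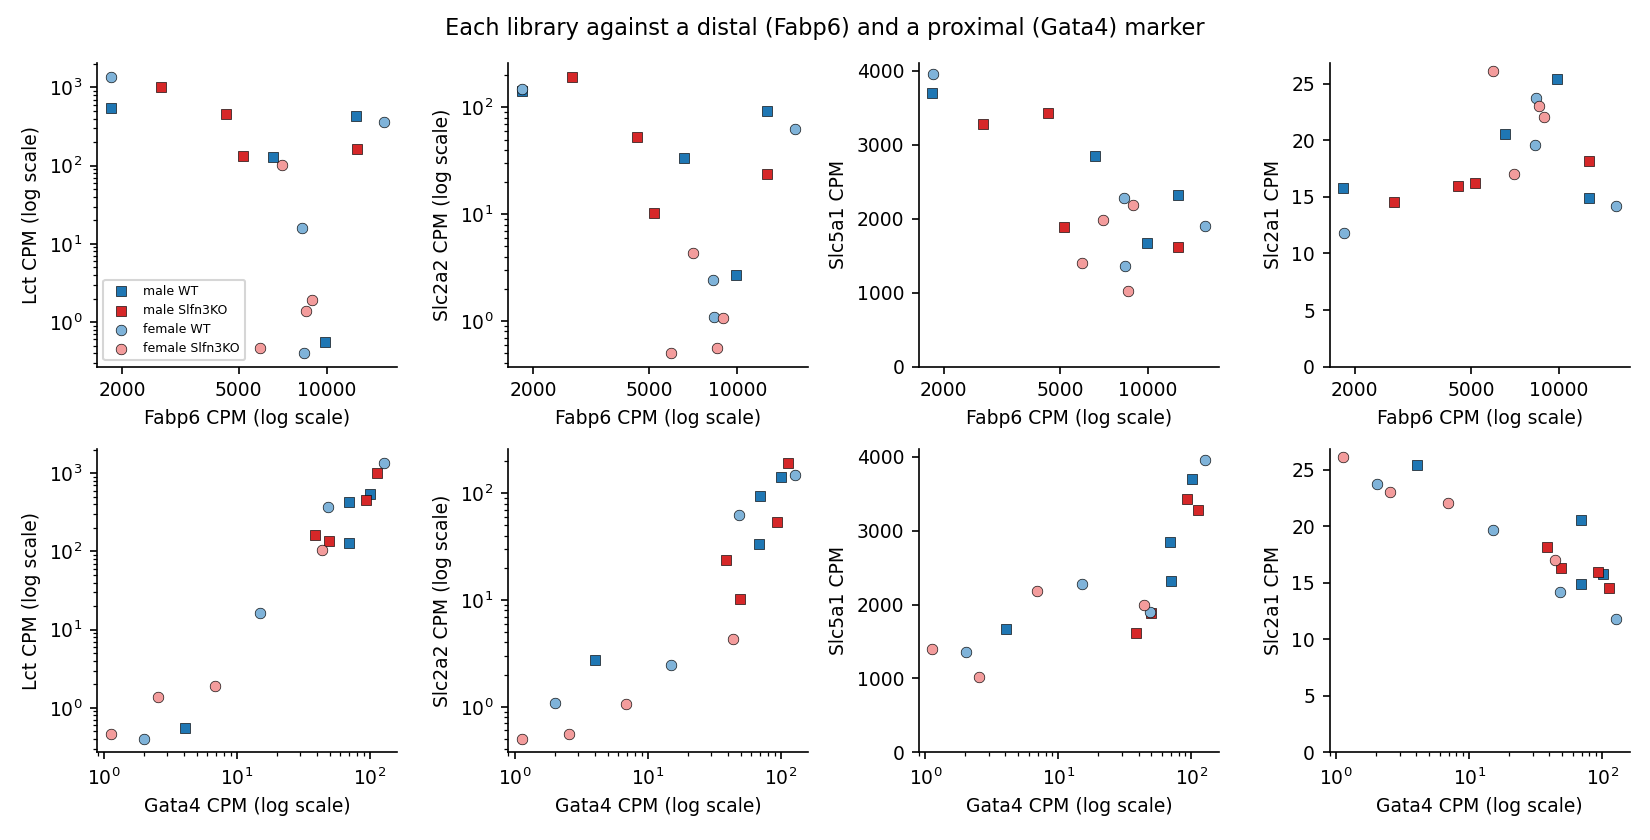
Lct, Slc2a2, Slc5a1 and Slc2a1 in each library (CPM) against Fabp6, a distal marker (top row), and Gata4, a proximal marker (bottom row), on log horizontal axes. The highest Lct levels lie at the low end of Fabp6, and the lowest at mid-range Fabp6, among libraries with over 100 CPM. Lct and Slc2a2 line up with Gata4, from 0.461 CPM of Lct at 1.13 CPM of Gata4 to 1367 CPM at 127 CPM.

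Against Gata4, the proximal marker, r over the 16 libraries was 0.978 for Lct, 0.949 for Khk, 0.920 for Slc2a2, between 0.721 and 0.902 for Slc2a5, Sis, Mgam, Slc5a1 and Treh, and -0.890 for Slc2a1. Gata4 was taken as a marker after the values had been seen, so that its calls describe these libraries and do not stand as an independent test. Gata4 was at 69.2, 101, 4.06 and 69.7 CPM in male WT 1 to 4 and at 38.6, 93.1, 49.4 and 113 CPM in male Slfn3KO 1 to 4. In the same fit with Gata4 in place of Fabp6, 8 members rose and Slc2a1 fell, where 14.1% of 14821 genes rose and 12.4% fell. Lct rose by 1.97 (SE 0.13, edgeR adjusted p 1.12e-06) and Slc2a2 by 1.28 (SE 0.15, edgeR adjusted p 8.92e-05) for each unit of log2 Gata4. The slope was 0.30 for Slc2a5, 0.28 for Khk, 0.20 for Sis, 0.20 for Slc5a1, 0.18 for Treh, 0.14 for Mgam and -0.16 for Slc2a1, with edgeR adjusted p between 3.22e-05 and 0.0207. Lactase RNA had the steepest slope, and the starch and sucrose enzymes and SGLT1 were among the flattest. Of the promoters shown above, those with 2 AGATAA matches belonged to Lct, with a slope of 1.97, and Mgam, with 0.14. Slc2a2, with a slope of 1.28, held no AGATAA but did hold TGATAA, a spelling that was not searched. A tie between these letters and the slopes was not tested.

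Fewer members were called within 1 genotype. Within the 8 WT libraries alone, 8 of 9 members were called and Treh was not (slope 0.12, edgeR adjusted p 0.199). Of 14183 genes tested there, 768 (5.41%) rose and 817 fell. Within the 8 Slfn3KO libraries alone, where 0.0989% of 14158 genes rose, Lct was the 1 member called. The slopes were 1.61 in Slfn3KO and 2.11 in WT for Lct and 1.01 and 1.25 for Slc2a2, and the difference between the genotypes was not tested. Without WT 3 and 4 of both labelled sexes, Sis, Mgam and Slc5a1 were no longer called, with slopes of 0.16, 0.12 and 0.20 and edgeR adjusted p of 0.101, 0.132 and 0.0705. Treh was also no longer called without female WT 1 (edgeR adjusted p 0.0984), without female Slfn3KO 1 (edgeR adjusted p 0.0582) or with the replicate number as a block (edgeR adjusted p 0.115). With 1 library left out the Treh slope stayed between 0.15 and 0.20, against 0.18 over all libraries. With Gata4 held equal, the genotype difference was 0.15 for Lct, -0.99 for Slc2a2 and -0.50 for Treh, against -1.68, -2.29 and -0.59 without it, with no edgeR adjusted p under 0.328 for any member.

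**Figure D5:**
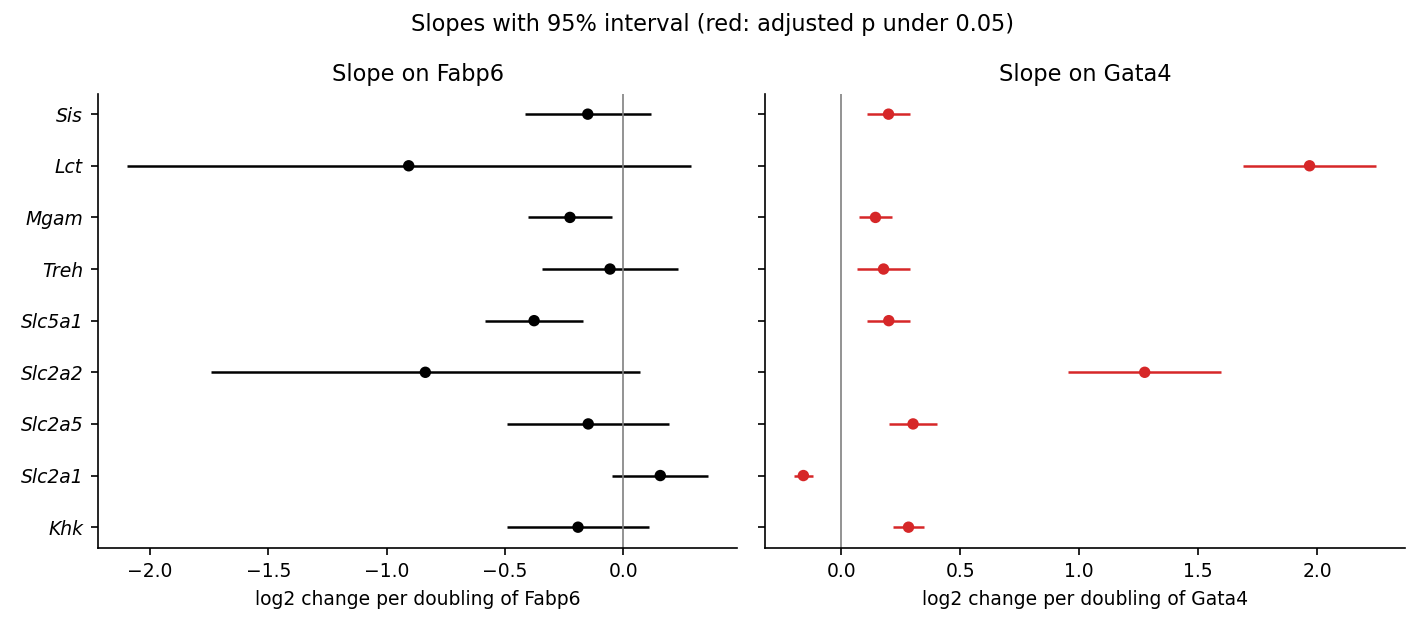
Slope of each gene on log2 Fabp6 CPM (left) and on log2 Gata4 CPM (right) with 95% intervals, fitted with labelled sex and genotype. No gene is called on Fabp6, and all 9 are called on Gata4, Lct and Slc2a2 with the steepest slopes and Slc2a1 alone below 0.

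Markers of enterocytes as such also moved with Gata4. Of the 8 pan-enterocyte markers, 7 rose, Vil1 by 0.16 and Alpi by 0.26, and of the 4 endothelial markers 3 fell, Kdr by 0.35 and Pecam1 by 0.31 on the log2 scale. With the summed pan-enterocyte level as a further covariate, 2.69% of genes rose and 1.40% fell with Gata4. Lct (2.17, edgeR adjusted p 6.53e-05), Slc2a2 (1.28, edgeR adjusted p 0.0128), Slc2a5 (0.29, edgeR adjusted p 0.0388), Khk (0.27, edgeR adjusted p 0.00769) and Slc2a1 (-0.15, edgeR adjusted p 0.0103) were called at nearly the same slopes. Sis, Mgam, Treh and Slc5a1 were not, with slopes of 0.11, 0.06, 0.05 and 0.06. No test compared the members with each other, and this fit was not repeated with libraries left out. Slc10a2, the ileal bile acid transporter and a second distal marker, gave slopes below 0 for the same 8 members, and Slc2a2 was called with a slope of -1.96 (SE 0.40, edgeR adjusted p 0.0207) where 2.11% of genes fell and 1.19% rose.

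Genes of the same tasks were read beside the members. Of 15 other hexose transporters 12 were tested, and edgeR called none between the genotypes or on Fabp6. On Gata4, 7 of the 12 rose and 1 fell, with a median slope of 0.11 against -0.0106 over all genes. The steepest, picked here after their values were seen, were the SGLT family members Slc5a4b (0.89) and Slc5a4a (0.55), the hexose transporter Slc2a7 (0.51) and the inositol transporter Slc5a11 (0.48). Slc5a4b ranged from 3.40 to 161 CPM. The genes named from the lists that follow were likewise picked after their values were seen, and are not always the steepest. Of 13 genes of fructose and galactose metabolism 6 rose and 2 fell, among them the fructose pathway enzyme Tkfc (0.23) and, falling, the hexokinase Hk2 (-0.35). Of 6 genes of gluconeogenesis and glucose release 4 rose, among them Pck1 (0.55) and G6pc (0.49), which makes free glucose in liver and kidney. Of 5 sugar sensing genes 4 were tested and 3 rose, among them Mlxipl (0.16), which codes for the sugar-responsive factor ChREBP. No gene of these 4 lists was called between the genotypes or on Fabp6 by edgeR.

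Genes whose levels were most like those of each member were found by Pearson's r of log2 CPM over the 16 libraries, among all tested genes outside the set. For Lct they were Ano6 (0.992), Fam151a (0.982) and Tm4sf5 (0.979), with Gata4 itself at 0.978. For Slc2a2 they were Ms4a10 (0.971), Slc23a1 (0.971) and Smim24 (0.969), and for Khk Cyp4v3 (0.988), Podn (0.987) and Slc5a11 (0.987). Slc5a1 was most like Slc25a5 (0.983), Acsl5 (0.9745) and Dok4 (0.974), and Mgam was most like Slc25a5 (0.969), Sucla2 (0.959) and Entpd7 (0.955). For Sis they were Cyfip1 (0.946), Ugp2 (0.939) and Ugt2b34 (0.936), for Treh Plekhg6 (0.972), Relb (0.961) and Tspan5 (0.959), and for Slc2a5 Hook2 (0.964), Afg3l2 (0.958) and Trib3 (0.957). Slc2a1 was most like Nkain1 (0.950), Slc17a9 (0.932) and Bhmt2 (0.927). Depth, base composition and the tissue piece are shared by all genes of a library, and these values are a description.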

How the data were processed

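RNA of ileum mucosa from 16 mice was sequenced as 50-base single reads from stranded libraries, 1 library for each mouse as far as the study's methods say, so that p-values measure the spread between these 16 samples. The authors deposited raw read counts per gene (GENCODE, GRCm38/mm10). The file header names featureCounts with reverse strand counting (the submitters' processing notes give version 1.4.6), while the study's methods name STAR alignment and another counter. The deposited counts were used unchanged. The members and gene lists were chosen with earlier results of these data known. Genes named were Slfn3, Fabp6, all members, the steepest called Fabp6 slope of each other carbohydrate list and any of its genes called between genotypes (this named no gene), the 3 genes most like each member, and markers beside a result; other names are said to be chosen after their values were seen.

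Counts were normalized by TMM, genes with low counts were removed by filterByExpr, and the edgeR 4.0.16 quasi-likelihood test in R 4.3.3 was run over all genes with Benjamini-Hochberg adjustment. Calls between genotypes needed an adjusted p under 0.05 and 1.5-fold, and slopes an adjusted p under 0.05. log2 CPM used a prior count of 2. Standard errors were the log2 change divided by the root of the F statistic. Correlations used 100000 permutations, or all orders within 8 libraries, two-sided. The floor of 3 counts covers counting error only. DESeq2 1.42.0, other scaling, no filter, the replicate number as a block, other position markers and leaving out libraries were the alternatives. The Gata4 slope with its alternatives was added after the data were seen. Same-numbered male Slfn3KO and WT libraries deviated together (r of 0.229, 0.318, 0.518 and 0.138, 2 of 4 highest with its own number), and the block left the male count of calls at 0. Python 3.11.15, scipy 1.17.1 and matplotlib 3.10.9 were used for the correlations and figures, and promoter sequences came from RefSeq.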

Additional observations from a re-analysis of the deposited data

Results flagged for a closer look

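In 36 sets of 4 libraries (9 genes in 4 groups of labelled sex and genotype), 2 held a library far from the other 3 by Dixon's ratio on log2 CPM, beyond its 95% limit. Chance alone gives about 1 in 20 such sets. Treh in male WT 4 was at 316 CPM beside 179 to 192 CPM in the other 3 male WT libraries, with a ratio of 0.875. Slc2a5 in male Slfn3KO 3 was at 69.0 CPM beside 161 to 182 CPM in the other 3 male Slfn3KO libraries, also with a ratio of 0.875. Male Slfn3KO 3 had the lowest Sis, Mgam, Treh, Khk and Slc2a2 of its group too.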

How the results depend on the processing

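In the pooled, female and interaction fits 195 of 198, 114 of 117 and 185 of 189 member values kept direction and side of the threshold, in the male fits 96 of 117, on Fabp6 221 of 234, at equal Fabp6 199 of 207, on Gata4 197 of 216 and in correlation 161 of 162. DESeq2 called 54 genes pooled, 14 male, 506 female, 19 for the interaction, 452 on Fabp6 and 46 at equal Fabp6, against 0, 0, 0, 0, 108 and 0 for edgeR; the cause was not tested. The 108 calls on Fabp6 became 0 with the replicate block, 10 without WT 3 and 4 of both labelled sexes (which gave 359 for the interaction), 490 with Slc10a2, 2 within Slfn3KO, 0 within WT, 4 without the 2 farthest libraries, and 18 (without female WT 1) to 177 (without male WT 2) with 1 library left out. At equal Fabp6 they were 0 to 2, the 2 without male WT 1. The 3922 calls on Gata4 became 1397 with the replicate block, 606 with the pan-enterocyte level, 14 within Slfn3KO, 1585 within WT and 1441 (without female WT 1) to 4332 with 1 library left out.

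Direction turned without WT 3 and 4 in males for Mgam (-0.21) and Slc2a2 (-0.33). On Fabp6 it turned for Treh with the replicate block (0.026) and within WT (0.028), for Slc2a5 within Slfn3KO (0.071), and without the 2 farthest libraries for Sis (0.028), Treh (0.026), Slc2a5 (0.12), Slc2a1 (-0.0071) and Khk (0.0056). With Gata4 in place of Fabp6 the genotype difference turned for Sis (0.023), Lct (0.15), Slc2a5 (0.12) and Slc2a1 (-0.0056). With 1 library left out it ran from -0.038 to 0.15 for Slc2a1 pooled, from -0.39 to 0.019 for Sis in females and from -0.31 to 0.11 for Sis in the interaction. In males it ran from -0.27 to 0.11 for Sis, -0.15 to 1.25 for Lct, -0.096 to 0.19 for Mgam, -0.079 to 0.27 for Treh, -0.21 to 0.17 for Slc5a1 and -1.23 to 0.71 for Slc2a2. At equal Fabp6 it ran from -0.29 to 0.050 for Slc2a5 and -0.032 to 0.14 for Slc2a1. The Fabp6 slope ran from -0.15 to 0.15 for Treh and -0.30 to 0.0079 for Khk, and r of Treh from -0.230 to 0.0446. The replicate block changed no other call of a member than Treh on Gata4 (adjusted p 0.115, edgeR). Same-numbered female libraries did not deviate together (r of -0.364 to 0.143, 0 of 4 highest with its own number).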
